A study of Mus musculus with 6 samples.

Results

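Genes for 6 secreted host-defence proteins of the maturing alveolar type 2 cell were examined in whole mouse lung at E18.5: Sftpd, Chil1, Lyz1, Lyz2, Hc and Cxcl15. They were picked by symbol from the 24521 genes of the deposited normalised table, and all 6 were found and had enough reads to be tested, among 19042 tested genes. The choice was made with their genotype difference already known, as genes lower in the knockout beside surfactant protein genes that differ little. Their genotype differences, and the contrast with the surfactant genes, are therefore given as a description with no test. The study compared 3 wild-type lungs with 3 lungs of the genotype Mll3FDC/FDC, called Mll3 KO by the submitters and knockout here. Mll3, the product of Kmt2c, is a histone H3 lysine 4 methyltransferase. Nothing in the labels tells what the allele removes, in which cells or on what strain background, nor whether the 3 samples of a genotype came from separate embryos or litters, so a p-value measures only the spread between these samples, which may be technical. Lungs were taken before air had entered them, and the lobes were snap-frozen whole.

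Alveolar type 2 cells line the air sacs, make and recycle surfactant, and secrete proteins that bind, lyse or flag microbes. The surfactant lipid and its hydrophobic proteins SP-B and SP-C are stored in lamellar bodies and lower surface tension, whereas the collectins SP-A and SP-D belong to innate defence. Many defence products of these cells appear late in gestation or after birth, when the cell matures, and so serve as markers of that maturation. In whole lung other cells contribute too: macrophages make lysozyme, airway club cells make secretory defence proteins, and the liver makes most complement of the blood. In a bulk sample, fewer cells of a type and less RNA per cell cannot be told apart.

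Lyz1 and Lyz2 need their sequences beside their values, because they are neighbouring copies of 1 gene whose reads can be confused. On GRCm38 (mm10), both lie on the minus strand of chromosome 10, Lyz1 from 117287797 to 117292868 and Lyz2 from 117277331 to 117282321. In the GENCODE M21 transcripts, their coding sequences of 447 bases (stop codon included) differ at 22 bases, an identity of 95.1%. The stretch of 75 bases, the read length used here, with the most differences is coding bases 58 to 132, counted from the A of the start codon, within coding exon 1. It is shown first, with the 12 differing bases in capitals, at chr10:117292707-117292781 for Lyz1 and chr10:117282111-117282185 for Lyz2. The next line is a stretch that is the same in both genes (coding bases 276 to 350, across the junction of exons 2 and 3), from which a read cannot be placed. The last pair is upstream sequence of 71 bases from RefSeq (chr10:117292918-117292988 for Lyz1 and chr10:117282322-117282392 for Lyz2, build GRCm38.p6), with 9 differing bases in capitals and an identity of 87.3%. The RefSeq start of Lyz2 lies 49 bases inside the gene as the count table gives it, and those bases, with the matching ones of Lyz1, are not shown. All are written 5′ to 3′ on the minus strand.
Lyz1 coding, most different: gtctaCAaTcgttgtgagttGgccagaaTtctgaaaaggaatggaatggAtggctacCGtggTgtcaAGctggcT
Lyz2 coding, most different: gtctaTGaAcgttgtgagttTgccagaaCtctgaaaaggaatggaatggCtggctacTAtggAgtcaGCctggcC
Lyz1 and Lyz2 coding, shared: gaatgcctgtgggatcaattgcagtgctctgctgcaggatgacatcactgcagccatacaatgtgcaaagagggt
Lyz1 upstream: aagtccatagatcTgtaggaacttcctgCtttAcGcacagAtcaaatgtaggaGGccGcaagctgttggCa
Lyz2 upstream: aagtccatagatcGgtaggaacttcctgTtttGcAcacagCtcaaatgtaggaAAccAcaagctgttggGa

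Over the whole transcripts, 74 of the 1189 stretches of 75 bases in Lyz1 (6.22%) occur in Lyz2 as well, and 74 of the 1242 in Lyz2 (5.96%) occur in Lyz1. No such stretch was shared between a transcript of Sftpd, Chil1, Hc or Cxcl15 and any other gene. Most stretches of a read's length thus hold at least 1 distinguishing base, but placing a read with few of them depends on the aligner, so the division between the copies is less certain than their sum. Of 3 short motifs searched on both strands in the 250 bases before the RefSeq start, the ETS-type GGAAGT occurred once in Lyz1 and once in Lyz2, in each case 100 bases before the start, on the opposite strand within the printed stretch. It occurred in 19.7% of 32851 mouse promoters. The C/EBP-type TTGCNNAA occurred once in Lyz1, 209 bases before the start, and in 9.56% of promoters. The NKX2-1-type CTCAAG occurred in none of the promoters of Chil1, Lyz1, Lyz2, Hc and Cxcl15, once in that of Sftpa1 and at 2 places in that of Sftpb, and in 13.3% of all promoters. These are matches of letters, not sites.

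The libraries held 20158689 to 23305306 counted reads. Coordinates are those of the count table, on mm10. Values are CPM, read counts relative to the library total after TMM scaling. Kmt2c itself stood at 168 ± 9.58 CPM in the wild types and 158 ± 14.2 CPM in the knockouts (SD, n = 3 each), a count over the whole gene that does not check the label where the deleted part is not stated. Knockout 3 held 59951 Xist reads and 4 reads of 4 Y-linked genes, against 6 to 27 and 7414 to 9300 in the 5 others, so 1 knockout lung was female and all the others male. The sample titles carry 2 number prefixes of unstated meaning: wild type 1, wild type 2 and knockout 1 have the first, and wild type 3, knockout 2 and knockout 3 the second. Of all genes tested, 0.368% passed the genotype test of edgeR in either direction, 0.063% of all being higher and 0.305% lower in knockout.

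Sftpd (ENSMUSG00000021795, chromosome 14, 41172214 to 41185149, minus strand) encodes the collectin SP-D, which binds sugars on microbes. It stood at 271, 207 and 316 CPM in wild type 1, 2 and 3 and at 105, 185 and 203 CPM in knockout 1, 2 and 3. Every knockout value was below every wild-type value, though knockout 3 and wild type 2 were close together and knockout 1 stood apart at the low end. The log2 fold change of knockout over wild type was −0.69 ± 0.30 (SE). The knockout mean was 62.2% of the wild-type mean.

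The other collectins are set beside it. Of 5 tested members (Sftpa1, Mbl1, Colec10, Colec11 and Colec12), 0 passed the genotype test in edgeR, 0 lay under 0.05 before adjustment and 0 passed in DESeq2. Their median log2 fold change was −0.02, where the median of all genes tested was 0.01. Sftpa1, the gene of the companion collectin SP-A, lies on the same chromosome (41131782 to 41136452) and stood at 1215, 1170 and 1265 CPM in wild type and 1048, 1222 and 1318 CPM in knockout. Its genotypes overlapped fully, at −0.02 ± 0.10 on the log2 scale. Mbl2, a mannose-binding lectin of the liver, had 1 read in all 6 libraries together.

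Chil1 (ENSMUSG00000064246, chromosome 1, 134182176 to 134190181, plus strand) encodes a chitinase-like protein that binds chitin but does not cut it. It stood at 458, 401 and 544 CPM in wild type and 141, 229 and 290 CPM in knockout. The genotypes were well apart: the highest knockout value was below the lowest wild-type value by more than the SD of either group (71.7 CPM for wild type, 75.3 CPM for knockout). The log2 fold change was −1.09 ± 0.29 (SE), the most negative of the 6 genes, and the knockout mean was 47.1% of the wild-type mean. In the chitinase family list, 0 of 4 tested members (of 8 listed) passed in edgeR, 0 lay under 0.05 before adjustment and 0 passed in DESeq2, with a median of −0.10. Chia1, a true chitinase of type 2 cells, was at 17.3, 10.5 and 10.3 CPM in wild type and 4.90, 10.3 and 10.9 CPM in knockout. Wild type 1 was high, knockout 1 was low, the other 4 libraries lay close together and the genotypes overlapped (−0.55 ± 0.35 on the log2 scale, adjusted p = 0.65, edgeR). Ctbs and Chid1, also of this list, were at −0.16 ± 0.09 and −0.03 ± 0.08 on the log2 scale.

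Lyz2 (ENSMUSG00000069516) encodes the lysozyme of macrophages and type 2 cells, which cuts bacterial cell walls. It stood at 1233, 798 and 853 CPM in wild type and 495, 409 and 601 CPM in knockout. The genotypes did not overlap, wild type 1 was the highest library, and this was the only one of the 6 genes whose lowest library was not knockout 1 but knockout 2. On the log2 scale it differed by −0.94 ± 0.20 (SE), with the knockout mean at 52.2% of wild type.

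Lyz1 (ENSMUSG00000069515), the copy known from Paneth cells of the gut and also read in lung, stood at 1637, 984 and 1154 CPM in wild type and 467, 601 and 929 CPM in knockout. The genotypes did not overlap, but knockout 3 came within a small distance of wild type 2. On the log2 scale it differed by −0.92 ± 0.32 (SE), with the knockout mean at 52.9% of wild type. Lyz1 over Lyz2 was 1.33, 1.23 and 1.35 in wild type and 0.943, 1.47 and 1.55 in knockout. The pair was thus in nearly constant proportion in the wild-type lungs, while knockout 1 lay below that range and knockout 2 and 3 above it. Their sum, which does not depend on how reads were divided between them, was 2870, 1781 and 2007 CPM in wild type and 962, 1010 and 1530 CPM in knockout, with no overlap. The other 8 listed genes of the lysozyme family did not reach the read minimum of the test, and 4 of them had no read at all.

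Lysozyme is made by macrophages too, so their markers are set beside it. Of 16 tested macrophage and monocyte genes (of 17 listed), 0 passed in edgeR and 5 were under 0.05 before adjustment, while DESeq2 found 1 higher and 2 lower. In point estimate 14 of the 16 were lower in knockout, where 47.4% of all genes were, and the median log2 fold change was −0.14. The list summed to 305 to 360 CPM in the wild types and 277 to 313 CPM in the knockouts. This sum does not tell how much lysozyme RNA the same cells hold. Fcgr1, an Fc receptor of these cells, was at 7.59, 8.36 and 7.15 CPM in wild type and 5.48, 3.62 and 4.25 CPM in knockout (−0.79 ± 0.18 on the log2 scale, adjusted p = 0.11, edgeR). Mrc1, the mannose receptor, was at −0.27 ± 0.07, and Marco, a scavenger receptor of alveolar macrophages, ran the other way at 1.34 ± 0.39 (adjusted p = 0.29, edgeR). Siglecf, a marker of mature alveolar macrophages, had 3 to 9 reads in wild type and 1 to 2 in knockout. The part of macrophages in the lysozyme difference was not tested.

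Hc (ENSMUSG00000026874, chromosome 2, 34983331 to 35061438, minus strand) encodes complement C5, whose fragments attract leukocytes and start the membrane attack complex. It stood at 907, 751 and 675 CPM in wild type and 328, 608 and 635 CPM in knockout. The genotypes did not overlap, but knockout 2 and 3 lay close below wild type 3, and only knockout 1 was far lower. The log2 fold change was −0.57 ± 0.27 (SE) with all libraries and −0.33 without knockout 1. Of 20 other complement genes tested (of 26 listed), 0 passed in edgeR, 0 lay under 0.05 before adjustment and 0 passed in DESeq2, with a median of −0.10. C3, the central component upstream of C5, was at 262, 229 and 274 CPM in wild type and 114, 231 and 182 CPM in knockout, with knockout 1 again the lowest (−0.54 ± 0.26, adjusted p = 0.55, edgeR). C6 and C7, which join C5 in the attack complex, were at 0.21 ± 0.40 and 0.17 ± 0.23; these 2 genes were chosen after their values were seen.

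The liver makes most C5 in the body, and liver markers were checked for tissue carried along in dissection. They summed to 9.62, 14.1 and 17.2 CPM in wild type and 8.96, 81.2 and 27.9 CPM in knockout, highest in knockout 2. Knockout 1 was the lowest library both for this sum and for Hc. Wild type 1 was the highest library for Hc but the lowest wild type for the sum, and knockout 2 stood at 608 CPM for Hc. Of 7 tested liver markers, 0 passed in edgeR, with 1 at an unadjusted p under 0.05, and 0 passed in DESeq2. All 7 were higher in knockout in point estimate, with a median log2 fold change of 1.46. The part of liver tissue in the Hc values was not tested.

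Cxcl15 (ENSMUSG00000029375, chromosome 5, 90794534 to 90803067, plus strand) encodes lungkine, a chemokine of lung epithelium that draws neutrophils to the airspace. It stood at 1852, 1540 and 1636 CPM in wild type and 949, 1257 and 1665 CPM in knockout. It was the only one of the 6 whose genotypes overlapped, since knockout 3 lay above wild type 2 and wild type 3. The log2 fold change was −0.38 ± 0.19 (SE), the smallest of the 6 in size, and −0.20 without knockout 1 against −0.61 without knockout 3. Of 11 other CXC chemokines and receptors tested (of 21 listed), 0 passed in edgeR, with 1 at an unadjusted p under 0.05, and 0 passed in DESeq2, with a median of −0.01. That gene was Cxcl14, an epithelial chemokine, at 7.00, 6.32 and 8.89 CPM in wild type and 3.85, 5.97 and 5.599 CPM in knockout (−0.53 ± 0.20, adjusted p = 0.37, edgeR; 0.027 with the title prefix as a term). Neutrophil markers, for the cells lungkine attracts, summed to 55.5 to 88.3 CPM in wild type and 45.9 to 76.3 CPM in knockout. Of the 8 tested, 0 passed in edgeR, 0 lay under 0.05 before adjustment and 0 passed in DESeq2.

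**Figure D1:**
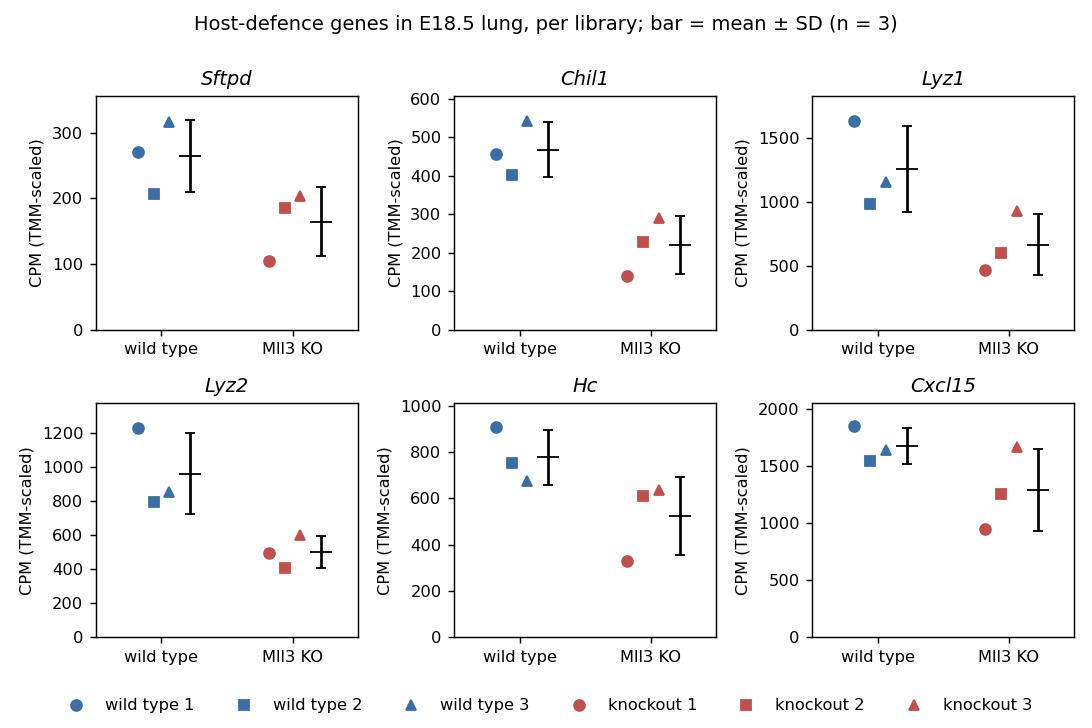
CPM after TMM scaling (vertical axes from 0, each gene on its own scale) of the 6 host-defence genes in each library, with symbols for replicates and the mean ± SD (n = 3) beside each genotype. Knockout libraries lie below wild-type libraries except for Cxcl15 in knockout 3, and knockout 1 is the lowest library in 5 of the 6 panels.

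Set side by side per length, as RPKM over the exon length of the count table, the 6 genes fell into a high and a low set. That length is longer than the longest coding transcript for Sftpd (2417 against 1275 bases), Chil1 (2804 against 1839) and Hc (6265 against 5445). The order within the low set thus depends on the length used. In wild type Lyz1 was highest at 996 ± 268 RPKM (SD, n = 3), then Cxcl15 at 788 ± 75.1 and Lyz2 at 730 ± 180, and neighbours in that order did not differ beyond their spread. Chil1 at 167 ± 25.6, Hc at 124 ± 18.9 and Sftpd at 109 ± 22.7 RPKM followed, again each within 1 SD of its neighbour's range. In knockout Cxcl15 was first at 607 ± 169 RPKM, then Lyz1 at 527 ± 188 and Lyz2 at 381 ± 73.0, and Hc at 83.6 ± 27.2, Chil1 at 78.5 ± 26.8 and Sftpd at 68.1 ± 21.6 RPKM lay within each other's spread. For scale, Sftpc, the gene of SP-C, was at 11941 ± 970 RPKM in wild type. The fewest reads of any of the 6 genes in a library were 2513, for Sftpd in knockout 1, so spread between libraries and not counting error sets the precision here.

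Taken as a set, 5 of the 6 genes had no overlap between genotypes, where 17.0% of all genes tested had none and 8.45% had every knockout library below every wild-type library. In edgeR 0 of 6 were called, with 3 (Chil1, Lyz1 and Lyz2) at an unadjusted p under 0.05. How many of all 19042 genes lay under that p was not counted in this fit. In edgeR with size factors of the DESeq2 kind in place of TMM, 851 genes were higher and 1182 lower at that p. The unadjusted counts of the gene lists are to be read beside these as well. DESeq2 called 2, Chil1 and Lyz2 (adjusted p = 0.030 and 0.020), where it called 1.87% of all genes, 0.326% higher and 1.55% lower. edgeR with the title prefix as a term also called 2, Chil1 and Sftpd (adjusted p = 0.012 and 0.033), where 3.28% of all genes were called, 0.746% higher and 2.54% lower, and limma voom called 0. Because the genes were picked for this contrast, nothing is read from these counts. The gene nearest the edge of the choice was Cxcl15, and 7.34% of all genes had a log2 fold change as low as its −0.38 or lower. The median of the 6 was −0.80, against 0.01 for all genes tested.

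Mean-centred on the log2 scale, the average of the 6 genes was 0.60, 0.19 and 0.40 in wild type 1, 2 and 3 and −0.84, −0.35 and 0.00 in knockout 1, 2 and 3. Knockout 3 was the highest knockout for 6 of 6 genes, and knockout 1 the lowest of all libraries for 5 of 6, where 23.4% of all genes tested had knockout 1 lowest; nothing is read from that count, since genes chosen as lower in knockout tend to have a knockout library lowest. Among wild types, library 1 was the highest for 4 of the 6 and library 2 the lowest for 5. The share of all genes with knockout 3 as the highest knockout was not counted. On this average the single female lung was the knockout nearest to wild type, but its sex cannot be told apart from other traits of that library. Without knockout 3, with 5 male lungs left, the median log2 fold change was −0.98, and single genes ran from −0.61 for Cxcl15 to −1.35 for Chil1. Without knockout 1 the median was −0.58, and Sftpd was at −0.45, Chil1 at −0.85, Lyz1 at −0.72 and Lyz2 at −0.93. Every gene of the 6 was lower in knockout whichever library was left out. Nothing is read from that either, since they were picked as lower in knockout.

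The title prefix gives 2 smaller comparisons, each with a single library on 1 side. Within the first prefix, knockout 1 was below wild type 1 and 2 in all 6 genes, by −1.23 on average on the log2 scale. Within the second, knockout 2 and 3 were below wild type 3 by −0.58 on average. Chil1 was at −1.61 and −1.08 in the 2 prefixes, Sftpd at −1.17 and −0.70, Lyz2 at −1.0 and −0.78, and Lyz1 at −1.44 and −0.63. Hc was at −1.33 and −0.12 and Cxcl15 at −0.83 and −0.18, so for these 2 the difference in the second prefix was small. Since the first prefix holds knockout 1 alone, that library and the prefix cannot be told apart in these values.

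The difference between prefixes, adjusted for genotype, is a contrast that the choice of the genes did not use. The second prefix had 120 genes higher and 6 lower in edgeR, 0.662% of those tested (0.63% higher and 0.0315% lower). Of the 6 genes 0 passed, 2 had an unadjusted p under 0.05, and 5 were higher in point estimate, with a median of 0.30 against 0.00 for all genes tested. Sftpd was higher by 0.64 ± 0.15 on the log2 scale (unadjusted p = 0.0052, adjusted p = 0.16, edgeR) and Chil1 by 0.61 ± 0.16 (unadjusted p = 0.0070, adjusted p = 0.18, edgeR). A rise at an unadjusted p under 0.05 was seen for 8.33% of all genes. Lyz1 was at 0.26 ± 0.41, Hc at 0.31 ± 0.35, Cxcl15 at 0.28 ± 0.20 and Lyz2 at −0.11 ± 0.26. With the prefix in the model the genotype estimates of Sftpd and Chil1 moved to −0.94 ± 0.15 and −1.34 ± 0.16, with SEs smaller than the 0.30 and 0.29 without it.

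The surfactant proteins and lamellar body genes ran from −0.02 to 0.42 on the log2 scale in the same libraries. Of 10 listed, 0 passed in edgeR, with 2 (Napsa and Lpcat1) at an unadjusted p under 0.05. DESeq2 called 1, Napsa, higher, and so did edgeR with the title prefix as a term. Their median log2 fold change was 0.12. Sftpc stood at 13181, 11234 and 12626 CPM in wild type and 11466, 11395 and 13630 CPM in knockout (−0.02 ± 0.12), and Sftpb, the gene of SP-B, at 1862, 1681 and 1736 CPM against 1665, 1896 and 2253 CPM (0.14 ± 0.11). Both ranges overlapped between genotypes. Abca3, the lipid pump of the lamellar body, was at 0.16 ± 0.11, Lamp3, a membrane protein of that organelle, at 0.11 ± 0.11, and Ctsh, a protease that helps process SP-B, at 0.00 ± 0.09. Slc34a2, the phosphate transporter, was at 0.10 ± 0.12, Lpcat1, an enzyme of surfactant lipid synthesis, at 0.24 ± 0.09, and Pgc, a secreted protease precursor, at 0.19 ± 0.18.

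Napsa, the aspartic protease that processes SP-B, ran opposite to the 6 defence genes. It stood at 345, 322 and 327 CPM in wild type and 443, 411 and 474 CPM in knockout, with no overlap, at 0.42 ± 0.08 on the log2 scale. Knockout 3 was the highest library for 8 of the 10 surfactant and lamellar body genes, as it was the highest knockout for all 6 defence genes. Knockout 1, so low for the defence genes, was the lowest library for 4 of the 10.

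**Figure D2:**
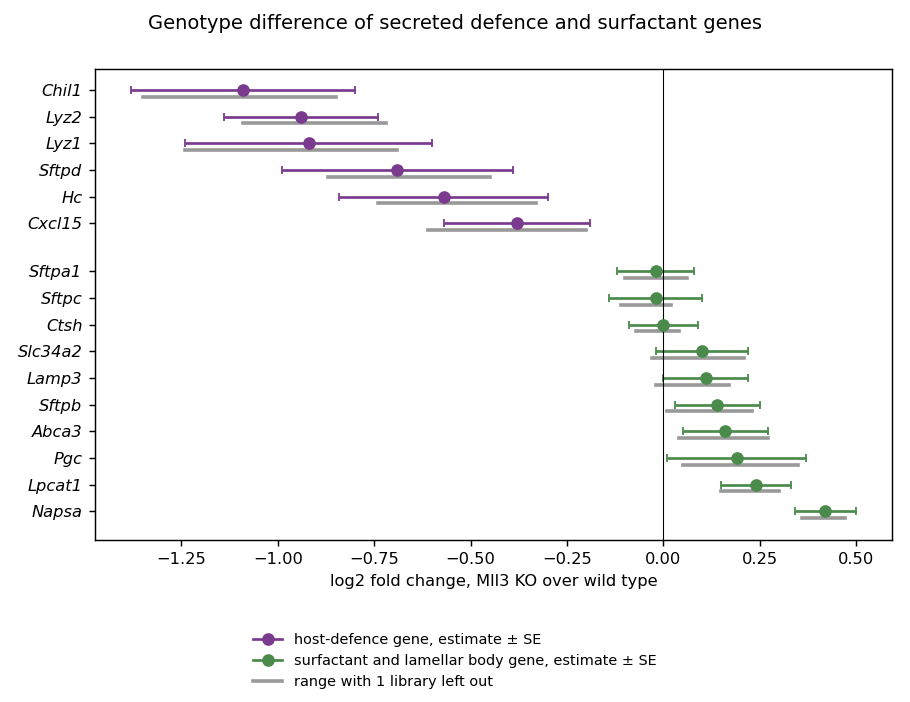
Log2 fold change of knockout over wild type (horizontal axis) for the 6 defence genes (purple) and the 10 surfactant and lamellar body genes (green), with SE bars from edgeR and grey lines for the range when 1 library is left out. The defence genes run from −1.09 to −0.38 and the surfactant and lamellar body genes from −0.02 to 0.42. No grey line of a defence gene reaches 0, but these genes were picked as lower in knockout.

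Dividing by Sftpc within each library removes what a gene shares with that type 2 gene. Chil1 came to 34.7, 35.7 and 43.1 CPM per 1000 CPM of Sftpc in wild type and 12.3, 20.1 and 21.3 in knockout. Lyz2 came to 93.5, 71.0 and 67.6 against 43.2, 35.9 and 44.1, and its knockout values lay closer together than before division. Cxcl15, which overlapped between genotypes in CPM, did not overlap per Sftpc: 140, 137 and 130 in wild type against 82.8, 110 and 122 in knockout. On this scale no gene of the 6 overlapped. Nothing is read from that count, since the genes were picked as lower beside surfactant protein genes that differ little. The share of all genes without overlap on this scale was not counted. The knockout means were 63.0% of wild type for Sftpd, 47.3% for Chil1, 53.3% for Lyz1, 53.1% for Lyz2, 68.0% for Hc and 77.4% for Cxcl15. The 6 together made 436 ± 40.0 CPM per 1000 CPM of Sftpc in wild type and 274 ± 51.8 in knockout (SD, n = 3 each). Sftpa1 measured the same way was 98.8 ± 6.10 and 98.4 ± 8.09, Sftpb 143 ± 6.21 and 159 ± 11.9, and Napsa 26.9 ± 1.503 and 36.5 ± 1.96. With the sum of Sftpa1, Sftpb and Sftpc as divisor the log2 ratios of the 6 genes changed by 0.01 to 0.02.

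**Figure D3:**
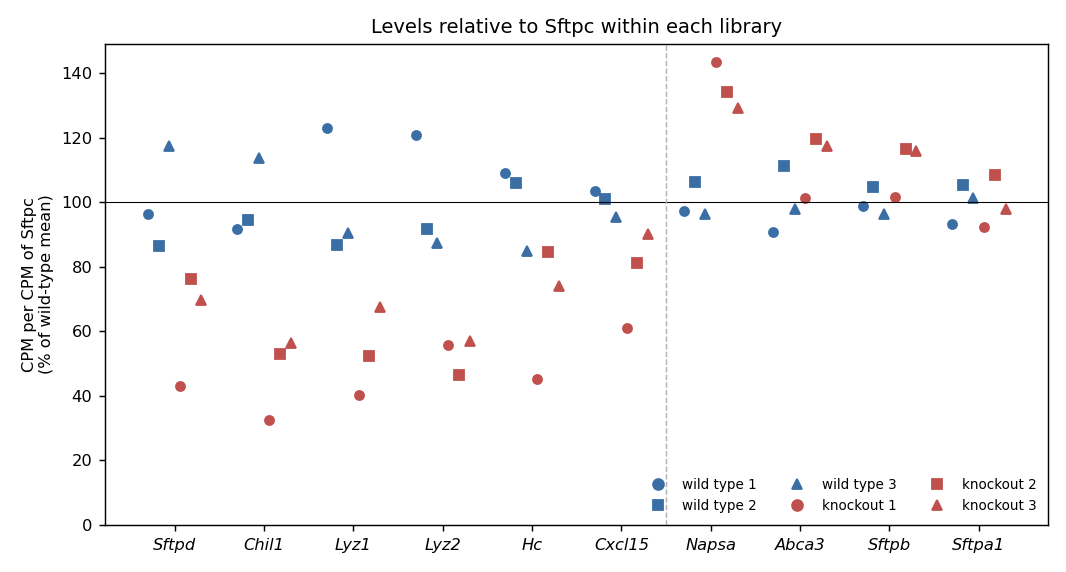
Each gene's CPM over that of Sftpc in the same library, as a percentage of the wild-type mean (vertical axis from 0), for the 6 defence genes left of the dashed line and 4 surfactant-related genes right of it. Knockout libraries (red) lie below all wild-type libraries (blue) for the 6 defence genes and above them for Napsa. The genotypes overlap for Abca3, Sftpb and Sftpa1, with knockout 2 and 3 above all wild types for Abca3 and Sftpb.

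Other genes of type 2 cells went in both directions. Of 17 tested, 1 rose in edgeR and 0 fell, with a median of 0.00; the model with the title prefix called 3 higher. Egfl6, a secreted matrix protein, rose from 192, 218 and 208 CPM to 328, 290 and 325 CPM (0.61 ± 0.08, adjusted p = 0.021, edgeR). Etv5, a transcription factor that maintains type 2 cells, was at 0.45 ± 0.09 (adjusted p = 0.072, edgeR) and Fgfr2, the growth factor receptor of the alveolar epithelium, at 0.35 ± 0.07 (adjusted p = 0.095, edgeR). Scd1, the stearoyl-CoA desaturase of lipid synthesis, was among the lower ones at 1534, 1234 and 1175 CPM in wild type and 675, 691 and 1087 CPM in knockout (−0.68 ± 0.20, adjusted p = 0.28, edgeR); it was chosen after its values were seen. Scd1 had no overlap between genotypes, as had 5 of the 6 defence genes, and knockout 1 was its lowest library, as for 5 of the 6. Knockout 3 was its highest knockout, as for all 6. Nothing is read from this likeness, since Scd1 was chosen with its values known.

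Transcription factors of type 2 cells had no member past the threshold. Of 16 tested, 0 passed in edgeR, with 5 under 0.05 before adjustment, and 1 was higher by DESeq2, with a median of 0.01. Nkx2-1, the lineage factor that drives surfactant genes, stood at 340, 386 and 391 CPM in wild type and 436, 426 and 465 CPM in knockout (0.25 ± 0.08, adjusted p = 0.27, edgeR). Its knockout values were all above its wild-type values. Cebpa, a factor of type 2 maturation that was chosen after its values were seen, was at 0.12 ± 0.08. Klf5, which takes part in alveolar differentiation, was at −0.26 ± 0.09 (adjusted p = 0.28, edgeR; 0.028 with the title prefix as a term).

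Other secreted defence genes, of whatever cell, were lower in point estimate for 13 of 18 tested (of 22 listed). Of all genes 47.4% were lower, and the median of the list was −0.30. One of them fell: Saa3, an acute phase protein, at 6.77, 7.71 and 7.95 CPM in wild type and 3.39, 4.402 and 3.55 CPM in knockout (−0.99 ± 0.16, adjusted p = 0.042, edgeR). Lbp, which carries bacterial lipopolysaccharide, was at 42.9, 41.3 and 47.3 CPM against 32.1, 34.5 and 39.6 CPM (−0.31 ± 0.10, adjusted p = 0.26, edgeR; 0.038 with the title prefix as a term). Ptx3, a soluble pattern receptor, was at −1.09 ± 0.35 (adjusted p = 0.29, edgeR). Lcn2, which withholds iron from bacteria and is in the neutrophil list, was at 45.4, 30.9 and 50.03 CPM in wild type and 18.0, 22.2 and 35.9 CPM in knockout (−0.73 ± 0.32, adjusted p = 0.50, edgeR). Knockout 1 was its lowest library, as for 5 of the 6 defence genes, and knockout 3 its highest knockout, as for all 6. Its genotypes overlapped, as did those of Cxcl15 alone among the 6.

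Markers of other epithelial cells differed with the genotype or were low in knockout 1. In alveolar type 1 cells, the flat gas-exchange cells, 3 of 11 tested genes fell in edgeR and the median was −0.45. All 11 lay under 0.05 before adjustment, 10 were lower by DESeq2, 11 fell in the model that holds the title prefix, and 11 had no overlap between genotypes. The 3 were Aqp5, a water channel, at 80.0 ± 10.1 and 30.1 ± 7.58 CPM (−1.41 ± 0.18, adjusted p = 0.042), Pdpn, a surface glycoprotein, at 114 ± 13.8 and 68.3 ± 7.96 CPM (−0.74 ± 0.11, adjusted p = 0.039), and Clic5, an actin-linked membrane protein, at 963 ± 24.8 and 646 ± 72.4 CPM (−0.58 ± 0.09, adjusted p = 0.042; SD, n = 3, edgeR). The type 1 list summed to 7347 to 7985 CPM in wild type and 5108 to 6144 CPM in knockout, with knockout 1 lowest and knockout 3 highest of the knockouts. Club cell markers, for the secretory airway cells, summed to 2138, 1515 and 2406 CPM in wild type and 1217, 1805 and 1466 CPM in knockout, with a median of −0.41, and of 8 tested 0 passed in edgeR, 2 were under 0.05 before adjustment, and 1 was lower in DESeq2. Ciliated cell markers summed to 225, 198 and 336 CPM in wild type and 126, 217 and 190 CPM in knockout, with a median of −0.57; of 8 tested 0 passed without the title prefix in the model (2 under 0.05 before adjustment, and 0 by DESeq2), while 8 fell with it. Knockout 1 was lowest in both airway lists. The ciliated list also differed between the prefixes, with 4 of 8 called higher in the second.

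Pan-epithelial markers went in both directions. They summed to 1463 to 1641 CPM in wild type and 1427 to 1507 CPM in knockout, with a median of 0.07, and of 9 tested 0 passed in edgeR (4 under 0.05 before adjustment), and by DESeq2 1 was higher and 3 were lower, while 5 had no overlap between genotypes. Epcam was at 0.37 ± 0.09 and Krt8 and Krt19 at −0.37 ± 0.08 and −0.41 ± 0.09. The part of cell composition in the difference of the 6 defence genes was not tested.

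**Figure D4:**
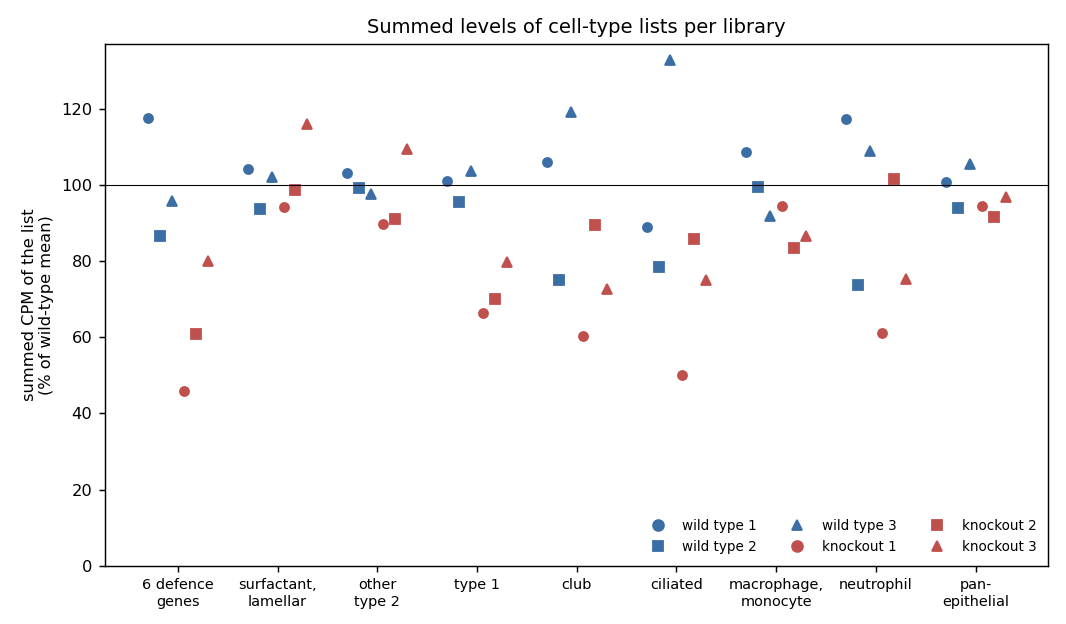
Summed CPM of each gene list in each library, as a percentage of the wild-type mean (vertical axis from 0). The 6 defence genes and the type 1 markers have all knockout libraries below all wild-type libraries, while the surfactant, other type 2, club, ciliated, macrophage, neutrophil and pan-epithelial sums overlap.

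Genes with a library profile most like the average of the 6 were sought among 11995 tested genes of at least 5 CPM, by the root mean square difference of mean-centred log2 CPM over 6 libraries. The median difference of all candidates was 0.497. The closest were Lims2 (0.062), an adaptor of cell adhesion, Spock2 (0.071), a matrix proteoglycan, Map6 (0.083), which binds microtubules, Plet1 (0.091), a surface protein of epithelial progenitors, Rasgrf2 (0.101), a Ras exchange factor, Scnn1a (0.108), the alpha subunit of the epithelial sodium channel that clears lung fluid, Msln (0.114), a surface protein of mesothelium, and Piwil4 (0.117), a Piwi protein. The members themselves lay 0.152 (Lyz1) to 0.257 (Lyz2) from their average. Spock2 stood at 224, 187 and 200 CPM in wild type and 82.1, 127 and 145 CPM in knockout. Scnn1a stood at 268, 230 and 271 CPM against 108, 178 and 201 CPM, and Msln at 379, 323 and 390 CPM against 155, 200 and 235 CPM. In each of these, knockout 1 was lowest and knockout 3 the highest knockout, as in the average profile by which they were picked. That profile carries both the genotype difference and this order of the knockouts. These genes were thus bound to be lower in knockout and to follow the order, so nothing is read from either, and their difference is not tested.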

How the data were processed

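RNA was extracted from snap-frozen whole lung lobes at E18.5; per the labels' protocols, strand-specific libraries were prepared after poly-A selection and sequenced as 75 bp single reads. The submitters' processing notes name bcl2fastq 2.19.1, GSNAP, featureCounts 1.6.3, DESeq2 1.24.0 and the build mm10. The deposited table of raw counts came, per the file headers, from featureCounts with strand setting 2 and a minimum mapping quality of 1; how many Lyz1 and Lyz2 reads that filter removed is not known. The annotation is Ensembl 98 by the name of the table. The second deposited table holds a signal made by the authors, each count over its library's size factor; multiplied back, 99.939 to 99.996% of its 24521 values per library were within 0.1 read of the counts. It supplied the symbols. The 92 spike-in rows held 1 read and were left out.

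Libraries were grouped by the genotype label; replicate numbers follow sample order and pair nothing. Of 34615 genes with a read, filterByExpr kept 19042, with 99.8 to 99.9% of reads. Genotypes were compared by the quasi-likelihood F test of edgeR 4.0.16 in R 4.3.3 (TMM, robust, genotype only) with Benjamini-Hochberg adjustment over all genes tested and a threshold of 0.05; SE is the absolute log2 fold change over the square root of F. The title prefix was tested in a model with genotype. Alternatives were DESeq2 1.42.0, limma voom (limma 3.58.1), other scaling and filters, the title prefix as a term, and each library left out. The test was checked on simulated counts.

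The 6 genes and all gene lists were chosen with earlier results of these data known. Named genes are the 6, the 10 surfactant and lamellar body genes, in every other list those past the threshold and up to 3 with the lowest genotype p, the 8 genes of most similar profile (prior count 2, predicted models left out), those said to be chosen after their values were seen, and Kmt2c, Mbl2 and Siglecf as markers. Sequences are from GENCODE M21 transcripts and a RefSeq promoter table (GRCm38.p6), which matched 5 of the 6 genes.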

Additional observations from a re-analysis of the deposited data

Results flagged for a closer look

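For 3 surfactant and lamellar body genes, every knockout library lay on one side of the wild types within the first title prefix and on the other side within the second. Sftpb was at −0.09 (log2, knockout over wild type) in the first prefix and 0.25 in the second, Abca3 at −0.08 and 0.26, and the phosphate transporter gene Slc34a2 at −0.16 and 0.18. The first prefix holds 1 knockout and 2 wild types and the second 2 knockouts and 1 wild type. Whether the genotype difference itself changed between the prefixes was not tested. None of the 6 defence genes showed such an opposite direction, but genes picked as lower in knockout were unlikely to. The share of all genes with such a reversal was not counted, so nothing is read from these 3.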

How the results depend on the processing

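The log2 fold change of each of the 6 defence genes was below 0 under all 13 alternatives. It ran from −1.35 for Chil1 without knockout 3 to −0.20 for Cxcl15 without knockout 1. Their median ran from −0.98 to −0.58 with 1 library left out. Nothing is read from the constant sign, since the genes were picked as lower in knockout and the alternatives use the same libraries. How many of all genes keep their sign was not counted. The 10 surfactant and lamellar body genes ran from −0.11 to 0.47. The counts over all genes depended far more on the setting. Against 12 genes higher and 58 lower in knockout, DESeq2 gave 62 and 295, no filter on low counts 103 and 340, the title prefix as a term 142 and 483, and limma voom 0 and 8 (870 higher at an unadjusted p under 0.05). With 1 library left out, 0 to 5 genes were higher and 0 to 36 lower; leaving out any single library moved both counts by more than 1.5 times, and the counts of 0 come from leaving out wild type 1, 2 or 3 for higher genes (513, 781 and 611 at an unadjusted p under 0.05) and wild type 2 or 3 for lower genes (1173 and 1018). For the second title prefix, against 120 higher and 6 lower, DESeq2 gave 315 and 44, no filter 439 and 140, and limma voom 8 and 0 (1171 lower at an unadjusted p under 0.05). The cause was not tested. No paired analysis was possible because the labels give no replicate numbers that samples of the 2 genotypes share. Leaving out knockout 1 brought Sftpd from −0.69 to −0.45, Hc from −0.57 to −0.33 and Cxcl15 from −0.38 to −0.20, and leaving out knockout 3 took Cxcl15 to −0.61; no other library moved any of the 6 genes by over 1.5 times.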
